A study of Rattus norvegicus with 6 samples.

Results

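The genes described here are the Wnt, BMP, TGF-beta and FGF pathway genes of the rat: every gene with a single annotated symbol that begins with Wnt and a digit, Fzd, Sfrp, Dkk, Bmp and a digit, Bmpr, Gdf and a digit, Fgf and a digit, Fgfr, Tgfb and a digit or r, Smad or Spry, with Fgf3 left out. The rule found 76 of the 12167 genes on the array, and the brightest probe stood for each. By role they were 6 Wnt ligands, 8 Frizzled receptors, 6 secreted Wnt antagonists, 13 BMP and GDF ligands, 2 BMP receptors, 3 TGF-beta ligands, 2 TGF-beta receptors, 7 Smads, 16 FGF ligands, 4 FGF receptors and 3 Sproutys. The remaining 6 matched the rule by name only (Bmp2k, Spryd3, Spryd7, Tgfb1i1, Tgfbrap1 and the pseudogene Fgfr1-ps1). They are included in every count, share and median of the set. Bmp1, counted with the BMPs, is a secreted protease. The rule uses symbols alone, but it was set with earlier results of these data known. The probe for each gene was picked by its mean intensity over the 6 arrays.

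Expression was measured on 6 one-colour arrays of tissue from adult male Sprague-Dawley rats, described in the labels as normal, with no treatment or genetic change. The pineal gland, which makes melatonin, had 2 arrays. There was 1 array each of the subcommissural organ, a secretory ependymal gland in the roof of the third ventricle; the subfornical organ, a sensory organ without a blood-brain barrier; the ordinary ependyma of the third ventricle, cut away from both organs; and total brain, a pool that served as the reference. The subcommissural organ, subfornical organ and ependyma arrays were each a pool of 2, and all structures except total brain were excised by infrared laser under the microscope. Only the pineal gland was replicated, and the labels do not say that its arrays came from different animals, so every p-value below rests on the spread between those arrays, which may be technical.

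Wnt ligands bind Frizzled receptors on the cell surface and act through beta-catenin or through polarity pathways, and secreted proteins of the Sfrp and Dkk families modulate them. BMP, GDF and TGF-beta ligands bind pairs of serine/threonine kinase receptors, which phosphorylate Smad proteins that then enter the nucleus. Secreted FGFs bind receptor tyrosine kinases, whose output is restrained by Sprouty proteins. Fgf11 and Fgf12, counted here with the FGF ligands by symbol, encode FGF homologous factors, which act mainly inside the cell. All of these families pattern the dorsal midline of the embryonic brain, from which the pineal gland and the subcommissural organ arise.

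The arrays bore out most labels but not all. The 9 pinealocyte markers summed to 1341 and 1046 on the pineal gland arrays and to between 30.4 and 135 elsewhere. The 5 subcommissural organ markers summed to 358 on that organ's array, against 209 in the ependyma and 34.4 to 75.3 elsewhere. Msx1 made up most of the first sums, at 241 and 204. Creb3l4, at 76.5 there and at most 0.515 elsewhere, and Pax6, at 26.7 and at most 5.18, were highest there, whereas Car3 (11.8) was higher in the pineal gland (51.2 and 18.3) and Creb3l1 (1.66) in the subfornical organ (2.31). The 9 ependymal markers summed to 1392 for the ependyma and 1203 for the subcommissural organ, against 375 for the subfornical organ, 111 for total brain and 71.8 and 67.5 for the pineal gland. The 5 subfornical organ markers did not single out the array of that name, where they summed to 7.77, under the pineal gland (34.6 and 17.6), the subcommissural organ (28.7) and total brain (16.0), and above only the ependyma (5.13). That array and total brain were instead high in oligodendrocyte markers, with sums of 1796 and 1639 over 10 genes, against 73.1 to 330 on the other 4 arrays. Such tissue pieces mix cell types, and fewer cells of a type cannot be told apart from less RNA per cell.

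Levels are the deposited intensities, which have no unit. A gene was taken as measured on an array where it reached 1.05, the median of all probes on all arrays. Of the 76 genes, 56 reached that level on at least 1 array (73.7%, against 82.1% of all genes) and 19 did so on all 6 (25%, against 51.8%). Another 20 stayed under it everywhere, among them 8 of the 16 FGF ligands and 6 of the 13 BMP and GDF ligands. Total brain had 41 genes at that level (53.9%; all genes 68.7%), the subfornical organ 40 (52.6%; 68.3%) and the ependyma 38 (50%; 67.9%). The pineal gland had 35 and 36 (46.1% and 47.4%; 67.5% and 65.3%), and the subcommissural organ the fewest, 31 (40.8%; 66.1%).

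In each comparison, differences of 4-fold or more were counted among the genes measured on the higher side, after values under 0.142 were raised to it. Where the lower side was under 1.05, the difference depends on that floor, and a bound against 1.05 is given as "at least" so many fold, which can be under 4. With 1 array on each side these counts carry no test. The subcommissural organ differed most from total brain, with 21 of 47 genes at 4-fold (44.7%, against 23.7% of all measured genes). Of these, 7 were higher (all genes 8.76%) and 14 lower (14.9%). The subfornical organ had 13 of 49 at 4-fold against total brain (26.5%; all genes 17%), 6 higher (7.23%) and 7 lower (9.76%). The ependyma had 15 of 48 (31.2%; all genes 17%), 6 higher (7.47%) and 9 lower (9.51%).

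Against the ependyma, 10 of 41 genes differed in the subcommissural organ (24.4%; all genes 12.9%), 3 higher (5%) and 7 lower (7.89%). In the subfornical organ 14 of 49 did (28.6%; all genes 13.6%), 10 higher (6.89%) and 4 lower (6.75%). The organs differed from each other at 14 of 46 genes (30.4%; all genes 19.4%), 3 higher in the subcommissural organ (7.65%) and 11 lower (11.8%). These comparisons share arrays, so their counts are not independent of each other.

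Many of the low values lay under 1.05. With every value under 1.05 raised to it, the subcommissural organ had 16 of 47 genes at 4-fold against total brain (34%; all genes 17.6%), the subfornical organ 10 of 49 (20.4%; 11.5%) and the ependyma 10 of 48 (20.8%; 11.3%). Against the ependyma, 5 of 41 remained at 4-fold in the subcommissural organ (12.2%; 7.79%) and 5 of 49 in the subfornical organ (10.2%; 8.65%). Between the organs 10 of 46 did (21.7%; 13.6%), and for the pineal gland 8 of 46 against total brain (17.4%; 15.4%) and 8 of 42 against the ependyma (19%; 13.1%). The shares for the set were then closest to those of all genes in the pineal gland against total brain and the subfornical organ against the ependyma.

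For the pineal gland, limma called 13 of 46 genes against total brain at an adjusted p under 0.05 (28.3%, against 24% of all genes). Sfrp5, Smad1 and Fgf2 were higher (3 genes; all genes 7.72%) and 10 lower (16.3%). After quantile normalization it called 6, of which 3 were higher. Among all genes it then called 1222 of 9082, against 2177 of 9077 as deposited. The median difference of all genes was -0.45 on the log2 scale as deposited and 0.03 after that normalization, and that of the set -0.71 and -0.26. Against the ependyma it called 12 of 42 (28.6%, against 20.3% of all genes), 5 higher (7.32%) and 7 lower (13%). Each of these genes was also at 4-fold, where the shares of all genes were 21.2% (6.83% higher, 14.4% lower) and 18.3% (6.57% higher, 11.7% lower). The fit takes a tissue with a single array to have the spread of the pineal pair, and the standard error came out the same for every gene, 0.73 and 0.72. With every value under 1.05 raised to it, limma called 0 of all genes in both comparisons, although 2474 and 2140 had an unadjusted p under 0.05, so every pineal call below is lost at that setting. On the pineal pair itself, 1 of the 38 measured genes, Tgfb2, lay at least 4-fold apart (2.63%, against 2.89% of all genes).

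**Figure D1:**
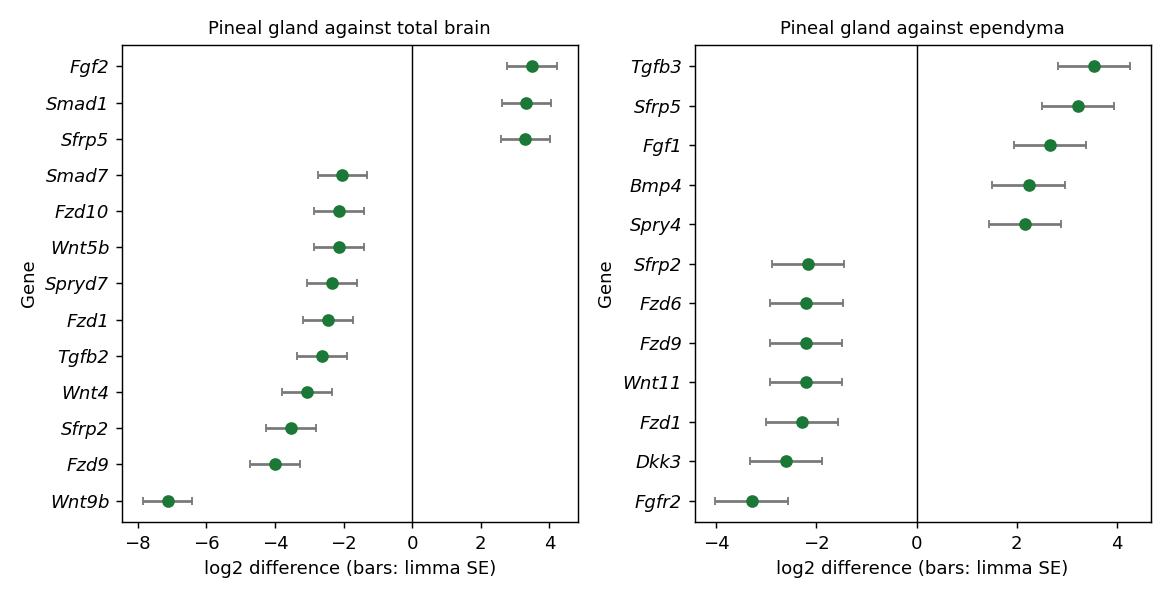
Log2 difference of the pineal gland (mean of 2 arrays) from total brain, left, and from the ependyma, right, for each gene of the set called by limma, 13 and 12 genes; points are the differences and bars the limma standard error. Wnt9b lies lowest against total brain at -7.13, and Tgfb3 highest against the ependyma at 3.53.

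Among the Wnt ligands, all 6 reached the measured level somewhere and none did so on all arrays. Wnt9b, known for its part in kidney development, was at 30.7 in total brain and at 0.339, 0.0942, 0.543, 0.435 and 0.463 on the first and second pineal gland, subcommissural organ, subfornical organ and ependyma arrays. It was thus measured in the total brain pool and on no array of a dissected structure, a difference of at least 29.2-fold in each case. Its fitted difference in the pineal gland was -7.13 on the floored log2 scale (SE 0.73, limma adjusted p = 2.13e-20, n = 2 against 1). That p rests on a spread shared by all genes and ranged from 1.55e-24 to 0.0904 over the alternatives, with 0.017 after quantile normalization. Over 10 genes, the neuron marker sum was also highest in total brain, at 1030 against 74.6 to 294 elsewhere. Of the 10, 9 were measured in total brain and 6 or 7 on each other array. Thy1 alone gave 509 of the 1030. Syp (159 and 117 against 81.3) and Slc17a7 (14.0 and 12.3 against 3.13) were higher in the pineal gland than in total brain. Snap25 was measured on no array, and the other markers were highest in total brain. The part of neurons in the Wnt9b difference was not tested.

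Wnt5b, a ligand that acts mainly outside the beta-catenin route, was at 17.4 in total brain, 15.7 in the subfornical organ, 12.3 in the ependyma and 4.06 and 3.84 in the pineal gland, but at 0.211 in the subcommissural organ. On this probe the subcommissural organ was the lowest array, at least 11.7-fold under the ependyma and at least 14.9-fold under the subfornical organ. A second Wnt5b probe was at 9.78 in total brain, 3.03 in the subfornical organ, 2.28 in the subcommissural organ, 1.92 in the ependyma and 0.828 and 0.107 in the pineal gland. It thus put the pineal gland lowest and the subcommissural organ above the ependyma. Against total brain both probes were lower there, by 6.36 and 2.10 on the log2 scale. Wnt5b fell 4.41-fold in the pineal gland against total brain (log2 -2.14, limma adjusted p = 0.0168).

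The related Wnt5a was at 3.30 in the subfornical organ and between 0.252 and 0.805 on the other 5 arrays. It was 1 of the 2 genes of the set that marked the subfornical organ, at least 3.14-fold above every other tissue. Wnt11, another ligand of the polarity pathways, was at 3.61 in the ependyma and 2.93 in the subcommissural organ and under 1.05 on the other arrays. It fell by 2.21 on the log2 scale in the pineal gland against the ependyma, or at least 3.43-fold (limma adjusted p = 0.0137). Its second probe stayed at background. Wnt2b, which acts through beta-catenin, was at 11.3 and 5.87 in the pineal gland, 7.35 in total brain, 3.56 in the ependyma, 2.46 in the subcommissural organ and 0.919 in the subfornical organ, the only array where it was not measured. Wnt4 was measured in total brain alone, at 2.04, with 0.785 in the subcommissural organ, 0.662 in the subfornical organ, 0.425 and 0.0368 in the pineal gland and 0.133 in the ependyma. Its difference in the pineal gland from total brain was -3.06 on the floored log2 scale (limma adjusted p = 0.000242), with a bound of at least 1.94-fold.

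The Frizzled receptors separated the tissues in different ways. Fzd1 was at 23.2 in the subcommissural organ, 22.9 in the subfornical organ, 9.98 in total brain, 8.76 in the ependyma and 2.12 and 1.54 in the pineal gland. The pineal gland was therefore the lowest tissue, 5.53-fold under total brain (log2 -2.47, limma adjusted p = 0.0044) and 4.85-fold under the ependyma (log2 -2.28, limma adjusted p = 0.0104). Fzd9 was at 5.89 in total brain, 4.33 in the subfornical organ and 1.70 in the ependyma, and at 0.380, 0.357 and 0.149 on the pineal gland and subcommissural organ arrays. It fell at least 5.61-fold in the pineal gland against total brain (limma adjusted p = 6.71e-07) and, by its bound, at least 1.62-fold against the ependyma (floored log2 -2.21, limma adjusted p = 0.0138).

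Fzd6 was at 22.9 in the ependyma and 18.1 in the subcommissural organ, against 7.60 in the subfornical organ, 6.93 and 3.60 in the pineal gland and 4.29 in total brain. Fzd3 was highest in the same structures, at 4.13 in the subcommissural organ and 3.19 in the ependyma, and was at 2.05 and 0.563 in the pineal gland, 0.507 in total brain and 0.161 in the subfornical organ. Both encode receptors that take part in planar polarity, and both were high on the arrays with the most ependymal marker signal; the part of that signal was not tested. Fzd6 fell 4.58-fold in the pineal gland against the ependyma (limma adjusted p = 0.0144), and its difference was -1.72 without the second pineal array. Fzd10 was measured in the subfornical organ at 2.69 and total brain at 2.08 and was under 1.05 elsewhere. It fell by 2.14 in the pineal gland against total brain, with a bound of at least 1.98-fold (limma adjusted p = 0.0171), or by 1.51 on the first pineal array alone, which is short of 4-fold. Fzd5 lay between 1.28 and 2.25 everywhere, Fzd2 only just reached the measured level, and Fzd4 never did.

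Of the secreted antagonists, Sfrp5 marked the pineal gland. Its level was 5.39 and 4.22 there and 0.388 to 0.512 on the other 4 arrays, so the groups were far apart and the gland was at least 4.01-fold above every other tissue. It rose at least 4.54-fold against both total brain (log2 3.30, SE 0.73, limma adjusted p = 6.13e-05) and the ependyma (log2 3.22, SE 0.72, limma adjusted p = 9.97e-05). Sfrp2, of the same family, was at 5.73 in total brain and 2.21 in the ependyma and under 1.05 on the other 4 arrays. It fell at least 5.45-fold in the pineal gland against total brain (log2 -3.54, limma adjusted p = 1.46e-05) and at least 2.10-fold against the ependyma (log2 -2.16, limma adjusted p = 0.0164).

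Dkk3, a divergent Dickkopf protein, was at 252 in the subcommissural organ, 218 in the ependyma, 124 in total brain, 52.7 in the subfornical organ and 45.3 and 28.2 in the pineal gland. Both arrays with the strongest ependymal marker signal were the highest. It fell 6.09-fold in the pineal gland against the ependyma (log2 -2.61, limma adjusted p = 0.00249) and was 4.79-fold higher in the subcommissural organ than in the subfornical organ. Of its 4 other probes, the 3 that were measured lay on the same side in both comparisons, and the last was under 1.05 on every array. Dkk4 was at 1.45 on 1 pineal array and 1.28 in the ependyma and under 1.05 elsewhere, and Dkk2 and Sfrp4 were under it on every array.

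**Figure D2:**
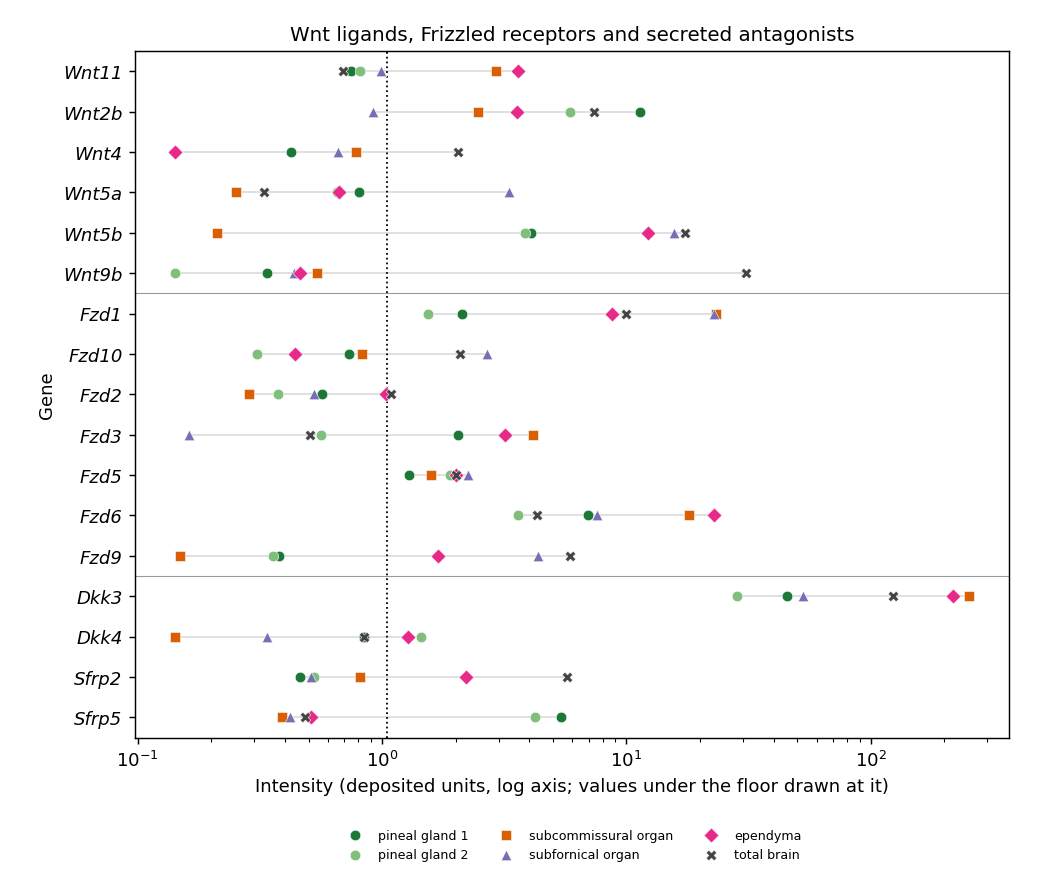
Intensity of the Wnt ligands, Frizzled receptors and secreted Wnt antagonists that reached the measured level, on each of the 6 arrays, on a log axis, 1 point per array; the dotted line is the measured level of 1.05 and values under 0.142 are drawn at it. Wnt9b stands alone in total brain at 30.7, and Sfrp5 in the pineal gland at 5.39 and 4.22.

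Of 50 other Wnt pathway genes listed, 37 were on the array. Against total brain 28 were measured in the pineal gland; limma called 3 higher (all genes 7.72%) and 7 lower (16.3%), with a median log2 difference of -0.13, against -0.45 for all genes. The co-repressor gene Tle2 was at 23.8 and 24.3 in the pineal gland and 0.339 in total brain (log2 6.15, at least 22.9-fold, limma adjusted p = 2.41e-15). Ryk, a Wnt co-receptor gene, was at 15.0 and 8.39 against 0.494 (log2 4.50, at least 10.7-fold, limma adjusted p = 1.44e-08), and Lrp6, another, had a bound of at least 1.68-fold (log2 2.02). Among the lower genes were the transcription factor genes of the beta-catenin route, Tcf7l2, at 11.4 and 4.30 against 135 (log2 -4.27, limma adjusted p = 9.02e-08), and Lef1 (log2 -3.54, at least 2.52-fold). Ctnnbip1 (fell by 2.57), Prickle1 (2.57), Nkd1 (2.53), Rspo1 (2.03) and Vangl1 (1.98) made up the rest. Ryk was also at 12.7 in the subcommissural organ, 6.69 in the ependyma and 3.84 in the subfornical organ, so total brain was its lowest array.

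Against the ependyma limma called 4 of 27 higher in the pineal gland (all genes 7.32%), led by Tle2 (log2 5.16, at least 22.9-fold) and the BMP and Wnt antagonist gene Sostdc1 (2.47, at least 3.98-fold). It called 2 lower (all genes 13%), Vangl1 (-3.04) and Lef1 (-2.30, at least 1.07-fold). The carrier of secreted Wnts, Wls, was at 140 in the subcommissural organ, 42.7 and 18.4 in the pineal gland, 26.6 in the ependyma, 24.0 in total brain and 11.1 in the subfornical organ. The subcommissural organ was 5.83-fold above total brain and 12.6-fold above the subfornical organ. The co-receptor gene Lrp5 went the other way, at 0.352 in the subcommissural organ and 7.23 in the subfornical organ, at least 6.88-fold apart. In all, 2 of 28 measured genes of this list were 4-fold or more higher in the subcommissural than in the subfornical organ (all genes 7.65%) and 4 were lower (11.8%), with a median log2 difference of -0.27, against -0.06 for all genes.

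Of the 7 BMP and GDF ligands measured in either organ, 3 were 4-fold or more lower in the subcommissural than in the subfornical organ (all genes 11.8%) and none was higher (7.65%), and for 1 of the 3, Gdf11, a second probe went the other way (log2 0.24). Gdf11, a ligand related to myostatin, was at 111 in the subfornical organ, 46.3 in total brain, 44.1 and 38.7 in the pineal gland, 29.2 in the ependyma and 3.83 in the subcommissural organ. On this probe the subcommissural organ was the lowest array, 7.63-fold under the ependyma, and lay 28.9-fold under the subfornical organ. The probes disagreed: a second was at 22.1 and 14.0 in the pineal gland, 12.4 in total brain, 9.24 in the subcommissural organ, 7.82 in the subfornical organ and 5.42 in the ependyma, its lowest array. Another was at 0.626 in the subcommissural organ and 3.14 in the subfornical organ. Bmp7 was at 9.81 in the subfornical organ, 7.53 in total brain, 4.19 and 1.61 in the pineal gland, 1.05 in the ependyma and 0.963 in the subcommissural organ, a gap of at least 9.34-fold between the organs. Bmp6, which in the liver governs iron balance, was at 13.6 in the ependyma, 11.96 in the subfornical organ, 12.3 and 5.998 in the pineal gland, 6.80 in total brain and 2.45 in the subcommissural organ.

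Bmp4, a dorsalizing signal of the neural tube, was at 5.28 in total brain, 3.40 and 1.27 in the pineal gland, 2.00 in the subfornical organ, 0.814 in the subcommissural organ and 0.442 in the ependyma. It rose by 2.23 in the pineal gland against the ependyma, with a bound of at least 1.98-fold (limma adjusted p = 0.0125), and by 1.52 on the second pineal array alone. Gdf15, a stress-response factor, was at 4.43 in the subfornical organ and 0.915 to 1.70 elsewhere. Gdf6 reached 1.152 in the subfornical organ only. Bmp1, the protease that cleaves procollagen and the BMP inhibitor chordin, was measured on all arrays, between 3.69 and 11.9. Bmp2, Bmp3, Bmp15, Gdf7, Gdf9 and Gdf10 stayed under the measured level on every array, which does not show that they were absent.

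Tgfb3 gave the widest range of the TGF-beta ligands. It was at 42.9 in the subfornical organ, 34.3 and 28.7 in the pineal gland, 11.3 in total brain, 2.71 in the ependyma and 0.508 in the subcommissural organ. The subfornical organ and pineal gland were the high tissues, and the subcommissural organ was at least 40.9-fold under the subfornical organ. In the pineal gland Tgfb3 rose 11.6-fold against the ependyma (log2 3.53, SE 0.72, limma adjusted p = 1.52e-05). A second probe of the gene lay on the same side in each of the 5 comparisons at 4-fold where it was measured, with 14.4 in the subfornical organ, 0.989 in the ependyma and a value under the floor of 0.142 in the subcommissural organ.

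Tgfb2 was at 6.50 in total brain and 3.77 in the subfornical organ and at 0.632 and 0.351 in the ependyma and subcommissural organ. The pineal arrays disagreed, at 3.54 and 0.308. Its difference from total brain was -2.64, with a bound of at least 3.37-fold (limma adjusted p = 0.00202), and it fell by 0.88 on the first pineal array alone, so the call rests on the second. Tgfb1 reached only 1.16, in the subfornical organ.

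The receptor gene Bmpr1a, for a type I receptor of BMPs, was at 11.4 in the subfornical organ, 4.15 in the ependyma, 3.42 and 2.75 in the pineal gland, 2.60 in total brain and 0.354 in the subcommissural organ. The subfornical organ stood above and the subcommissural organ below all other arrays. The former was 4.39-fold above total brain (log2 2.13) and the latter at least 2.48-fold under it (log2 -2.88), and the gap between them was at least 10.9-fold. The gene has 1 probe, and none of these differences has a replicate check. Bmpr2, the type II receptor, was even across tissues, at 50.6 and 24.7 in the pineal gland and 20.3 to 26.9 elsewhere. Tgfbr1 ranged from 6.88 to 15.5, and the co-receptor Tgfbr3 reached at most 1.69.

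Promoters were read from RefSeq (build GRCr8, 250 bases before the start of the gene) and held 58 of the 76 genes. The stretch of Bmpr1a is shown because its receptor gene separated the circumventricular organs, and that of Fgfr2, described further on, because it had the greatest excess of any gene of the set in the subcommissural organ over total brain. Bmpr1a lies on the minus strand, with the stretch at chr16:9786862-9787111, and Fgfr2 on the minus strand, with the stretch at chr1:194280915-194281164. Capitals mark TAATCC, the core bound by OTX and CRX factors, and CTTTGA, the core bound by TCF and LEF factors, in Bmpr1a, and GGCGCC, a GC-rich core bound by Smads, in Fgfr2.
Bmpr1a: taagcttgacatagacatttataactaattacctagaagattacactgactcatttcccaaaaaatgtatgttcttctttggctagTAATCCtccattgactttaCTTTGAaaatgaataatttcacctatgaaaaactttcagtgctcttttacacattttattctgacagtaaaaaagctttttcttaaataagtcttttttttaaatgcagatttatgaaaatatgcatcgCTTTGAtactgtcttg
Fgfr2: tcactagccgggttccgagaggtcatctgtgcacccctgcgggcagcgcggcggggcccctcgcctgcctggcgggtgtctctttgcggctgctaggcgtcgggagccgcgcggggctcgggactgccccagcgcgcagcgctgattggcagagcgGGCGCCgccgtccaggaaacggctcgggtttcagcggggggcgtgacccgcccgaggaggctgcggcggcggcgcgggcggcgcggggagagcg
In Bmpr1a, TAATCC begins 164 bases before the start and CTTTGA 145 and 16 bases before it; in Fgfr2, GGCGCC begins 94 bases before it. Searched on both strands, TAATCC was in 6.34% of all 33469 promoters, CTTTGA in 13.9% and GGCGCC in 8.69%. Of the 58 promoters of the set, 2 held TAATCC (Bmpr1a and Gdf15), 4 held CTTTGA and 14 held GGCGCC. The other word searched, CCGGAA of the ETS factors, was in 2 of the 58 (Spry2 and Spry4) and in 12.6% of all promoters. In both stretches shown no match overlapped another, and a match describes letters only.

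Among the Smads, Smad1, which carries BMP signals, was the one that separated total brain from the rest. It was at 6.86 in the subfornical organ, 6.47 and 5.30 in the pineal gland, 4.83 in the ependyma, 4.44 in the subcommissural organ and 0.582 in total brain. All 5 arrays of dissected tissue lay above total brain, by at least 4.23-fold. Smad1 rose by 3.33 on the log2 scale in the pineal gland (SE 0.73, limma adjusted p = 5.15e-05), or at least 5.57-fold, and its second probe lay on the same side in every comparison at 4-fold. Smad7, the inhibitory Smad, was at 3.41 in total brain, 3.20 in the subfornical organ, 1.69 in the subcommissural organ, 1.13 in the ependyma and 0.456 and 1.52 in the pineal gland. It fell by 2.03 there against total brain, with a bound of at least 2.70-fold (limma adjusted p = 0.0247), and by 1.17 on the second array alone.

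The other Smads varied less. Smad3, which carries TGF-beta signals, was at 33.8 and 21.6 in the pineal gland, 18.3 to 24.7 in the 3 other structures and 11.1 in total brain. Smad4, the partner common to both branches, ranged from 6.66 to 20.7, and Smad5, of the BMP branch, from 8.77 to 29.2. Smad2 and Smad9 were under the measured level on all arrays.

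**Figure D3:**
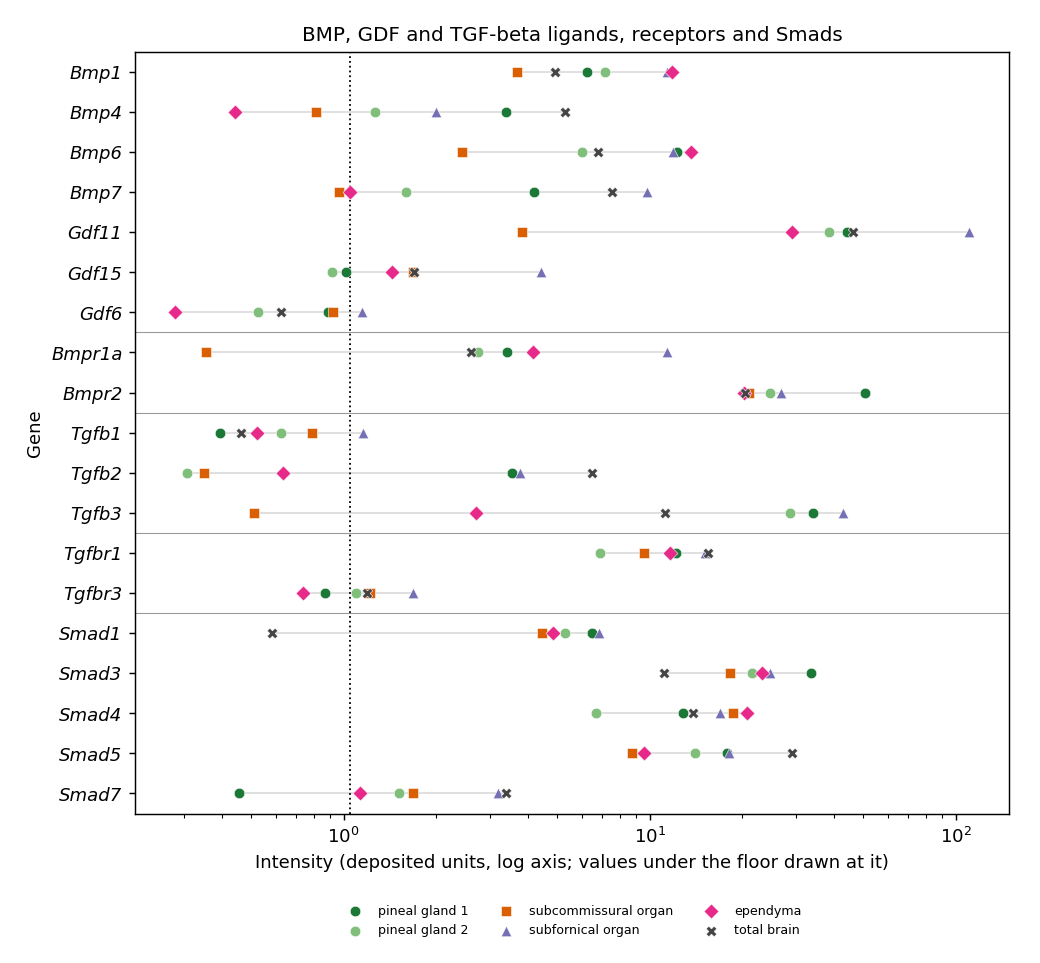
Intensity of the BMP, GDF and TGF-beta ligands, their receptors and the Smads that reached the measured level, on each of the 6 arrays, on a log axis, 1 point per array, with the measured level of 1.05 dotted and values under 0.142 drawn at it. On the brightest probes, the subcommissural organ is the lowest array for Gdf11, Bmpr1a and Tgfb3, and total brain for Smad1.

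Of 47 other BMP and TGF-beta pathway genes listed, 36 were on the array. In the pineal gland against total brain 26 were measured, 2 were called higher by limma (all genes 7.72%) and 5 lower (16.3%), with a median log2 difference of -0.47. The higher genes were Tgfbi (log2 2.77, at least 6.13-fold), a matrix protein induced by TGF-beta, and Fstl3, an activin-binding protein. Total brain was the lowest array for Tgfbi, at 0.945, with 2.25 to 5.78 in the structures other than the pineal gland. Fstl3 was at 0.907 and 1.57 against a value under the floor, so its bound is only at least 1.22-fold. The receptor gene Acvr1c led the lower genes, at 0.569 and 0.317 in the pineal gland against 11.5 in total brain (log2 -4.76, limma adjusted p = 1.77e-09), followed by Msx2 (-2.55, at least 1.74-fold), Inha (-2.20), Skil (-2.17) and Chrd (-1.86). The Acvr1c bound is at least 10.9-fold. Acvr1c was also low in the subcommissural organ (0.244) and the subfornical organ (0.624), and was at 2.46 in the ependyma. Against the ependyma limma called 3 of 28 higher, the follistatin-family genes Fstl1 (3.15) and Fst (2.82, at least 4.79-fold) and the receptor gene Acvr1 (1.96); the share of all genes was 7.32%. Another 4 were lower (all genes 13%): the homeobox genes Msx1 (-3.81) and Msx2 (-3.31, at least 2.96-fold), Id4 (-2.56) and Acvr1c (-2.54, at least 2.34-fold). Msx1 is also in the list of subcommissural organ markers.

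Id1 and Id3, known targets of BMP signalling, were highest in the subfornical organ. Id1 was at 59.6 there, 16.8 and 8.38 in the pineal gland, 13.4 in the ependyma, 11.8 in the subcommissural organ and 6.17 in total brain. Id3 was at 183 there, 47.8 and 40.6 in the pineal gland, 33.5 in the ependyma, 19.7 in total brain and 18.2 in the subcommissural organ. For both genes the subfornical organ lay above every other array, 9.66-fold and 9.30-fold above total brain. Between the organs, 2 of 29 measured genes of the list were 4-fold or more higher in the subcommissural organ (all genes 7.65%), Msx1 and Acvr2b. Another 6 were lower (11.8%): Id1, Id3, Id4, and Chrd, Chrdl1 and Acvrl1 with bounds of at least 3.19-fold, 1.74-fold and 1.08-fold, with a median log2 difference of -0.26. The astrocyte marker sum was also high on the subfornical organ array, at 1149 over 10 genes, against 191 on the subcommissural organ array and 897 in total brain. The vessel-wall or meningeal sum was 520 over 12 genes there, 55.8 on the subcommissural organ array, 333 in total brain and 100 and 81.2 in the pineal gland. Ptgds alone gave 437 of the 520, and Lum, Igf2 and Rgs5 were under the measured level. That sum is therefore mostly 1 gene. Of the 12 markers, 9 were measured in the subfornical organ, 8 and 9 in the pineal gland, 7 in total brain and 5 in the subcommissural organ. The part of these cell types in the differences was not tested.

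Among the 16 FGF ligands only Fgf5 was measured on all 6 arrays, between 1.10 and 2.16. Fgf1, the acidic FGF, was at 9.10 and 8.44 in the pineal gland, 7.93 in total brain, 1.38 in the ependyma, 0.639 in the subcommissural organ and 0.325 in the subfornical organ. The pineal gland and total brain were thus high and the other structures low. It rose 6.34-fold in the pineal gland against the ependyma (log2 2.67, SE 0.72, limma adjusted p = 0.00188). Fgf2, the basic FGF, was at 1.77 and 1.44 in the pineal gland, 1.69 in the subcommissural organ, 1.30 in the ependyma, 0.579 in the subfornical organ and 0.0656 in total brain. It rose by 3.49 in the pineal gland against total brain (limma adjusted p = 1.94e-05), but its levels are so near 1.05 that the bound on the fold is at least 1.52.

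Fgf22, a presynaptic organizer in the brain, was the other gene that marked the subfornical organ, at 4.19 there and 0.167 to 0.864 elsewhere, at least 3.99-fold above every other tissue. Fgf9, a glia-activating factor, was at 5.84 in total brain, 2.13 in the subcommissural organ, 2.00 and 1.59 in the pineal gland, 1.47 in the ependyma and 0.552 in the subfornical organ. Fgf8, a patterning signal of the midbrain, reached 2.14 in the subfornical organ only. Fgf6 reached 1.28 in the ependyma and Fgf10 reached 1.08 in the subfornical organ, and neither was measured on another array. Fgf11, Fgf12, Fgf17, Fgf18, Fgf19, Fgf20, Fgf21 and Fgf23 were never measured.

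Among the FGF receptors, Fgfr2 and Fgfr4 set the subcommissural organ apart. Fgfr2 was at 34.1 there, 11.4 in the subfornical organ, 5.53 in the ependyma, 0.823 in total brain and 0.768 and 0.415 in the pineal gland. The 3 structures of the ventricular wall were high, and total brain and the pineal gland were not measured. The subcommissural organ was at least 32.5-fold above total brain and 6.17-fold above the ependyma. In the pineal gland Fgfr2 fell by 3.29 on the log2 scale against the ependyma (SE 0.72, limma adjusted p = 6.39e-05), or at least 5.27-fold. A second Fgfr2 probe, at 2.39 in the subcommissural organ, 1.27 in total brain, 0.712 in the ependyma and 0.557 in the subfornical organ, was also highest in the subcommissural organ but put the ependyma and the subfornical organ under total brain.

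Fgfr4 was the 1 gene of the set that marked the subcommissural organ. It was at 16.6 there and at 2.21 and 3.30 in the pineal gland, 3.09 in the ependyma, 2.81 in the subfornical organ and 1.64 in total brain, and so 5.01-fold above the nearest other array. Fgfr1 reached only 1.35, also in the subcommissural organ. The decoy receptor Fgfrl1 lay between 1.07 and 2.92, with 1.38 in the subcommissural organ, under total brain, the subfornical organ (2.75) and the ependyma (1.88). Of the 4 receptors, 3 were 4-fold or more higher in the subcommissural organ than in the ependyma, and none was lower, although Fgfr1 was so close to 1.05 that its bound is at least 1.29-fold. The share of all measured genes higher in that comparison was 5%.

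The Sproutys, inhibitors induced by FGF signalling, did not all follow the receptors. Spry4 was at 13.4 in total brain, 8.81 in the subfornical organ, 8.56 and 4.62 in the pineal gland, 1.41 in the ependyma and 1.04 in the subcommissural organ, the array where Fgfr2 and Fgfr4 were highest. It rose 4.46-fold in the pineal gland against the ependyma (limma adjusted p = 0.0167), or by 1.71 on the log2 scale on the second array alone, which is short of 4-fold. Spry1 was at 6.70 in the subfornical organ, 2.17 and 1.45 in the pineal gland, 1.87 in the subcommissural organ, 1.30 in total brain and 0.512 in the ependyma. Its second probe was lower in the subfornical organ than in total brain, 0.705 against 1.42, and so opposed the first. Spry2 ranged from 7.39 in the ependyma to 19.1 in total brain, with 12.8 in the subcommissural organ. On the brightest probes, Spry1 and Spry2 were thus higher in the subcommissural organ than in the ependyma, and Spry4 was lower.

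**Figure D4:**
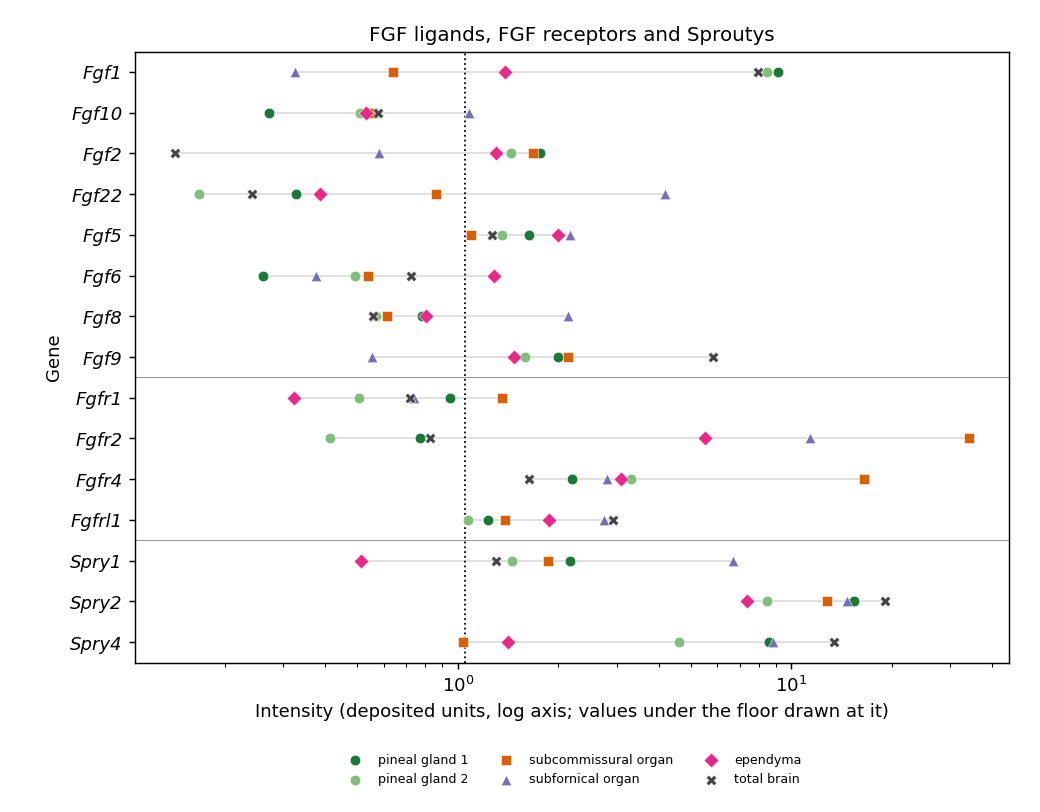
Intensity of the FGF ligands, FGF receptors and Sproutys that reached the measured level, on each of the 6 arrays, on a log axis, 1 point per array, with the measured level of 1.05 dotted and values under 0.142 drawn at it. Fgfr2 and Fgfr4 peak in the subcommissural organ at 34.1 and 16.6, where Spry4 is at its lowest, 1.04. Spry1 and Spry2 are lowest in the ependyma.

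Of 30 other FGF pathway genes listed, 23 were on the array. In the pineal gland limma called 1 of 16 measured genes higher than total brain (all genes 7.72%), the heparan sulphate carrier Sdc1 (log2 2.48, at least 1.56-fold). It called 3 lower (all genes 16.3%), Fgfbp1 (log2 -2.26, at least 1.07-fold), the adaptor gene Frs2 (-2.09) and Gpc1 (-1.85). The median log2 difference was -1.02, against -0.45 for all genes. Against the ependyma it called 2 of 16, Sdc1 higher (2.24, at least 1.56-fold; all genes 7.32%) and Gpc1 lower (-2.26; all genes 13%). Sdc2, another syndecan, was at 97.7 in the subcommissural organ, 30.4 and 10.2 in the pineal gland, 26.1 in the ependyma, 14.0 in the subfornical organ and 12.7 in total brain. Etv4, a transcription factor gene induced by FGF signalling, was at 0.284 in the subcommissural organ and 2.93 in the subfornical organ, at least 2.79-fold apart. Spred1 went the other way, at 1.17 against 0.116, with a bound of at least 1.11-fold. Of 18 measured genes of this list, 2 were 4-fold or more higher in the subcommissural organ (all genes 7.65%), Spred1 and Sdc2. Another 2 were lower there (11.8%), Etv4 and Sdc1.

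Across all families, the subcommissural and the subfornical organ differed by the largest median among the 4 comparisons between structures that were made; the pineal gland was not compared with either organ. The median of the 46 measured genes was -0.65 on the log2 scale, subcommissural minus subfornical, against -0.06 for all 9041 genes measured in that comparison. The 11 lower genes held 2 Wnt ligands (Wnt5a, Wnt5b), Fzd9, 3 BMP and GDF ligands (Bmp6, Bmp7, Gdf11), Bmpr1a, 2 TGF-beta ligands (Tgfb2, Tgfb3), Fgf22 and Spry4. The 3 higher genes were Dkk3, Fgfr4 and Fzd3. Fzd3, at 4.13 against 0.161, was at least 3.93-fold higher. The oligodendrocyte marker sum differed in the same direction as the lower genes, 257 against 1796, and the ependymal sum in the opposite one, 1203 against 375. With 8 of 9 ependymal markers measured on both arrays, both held ependymal signal, and the part of cell make-up in these differences was not tested.

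**Figure D5:**
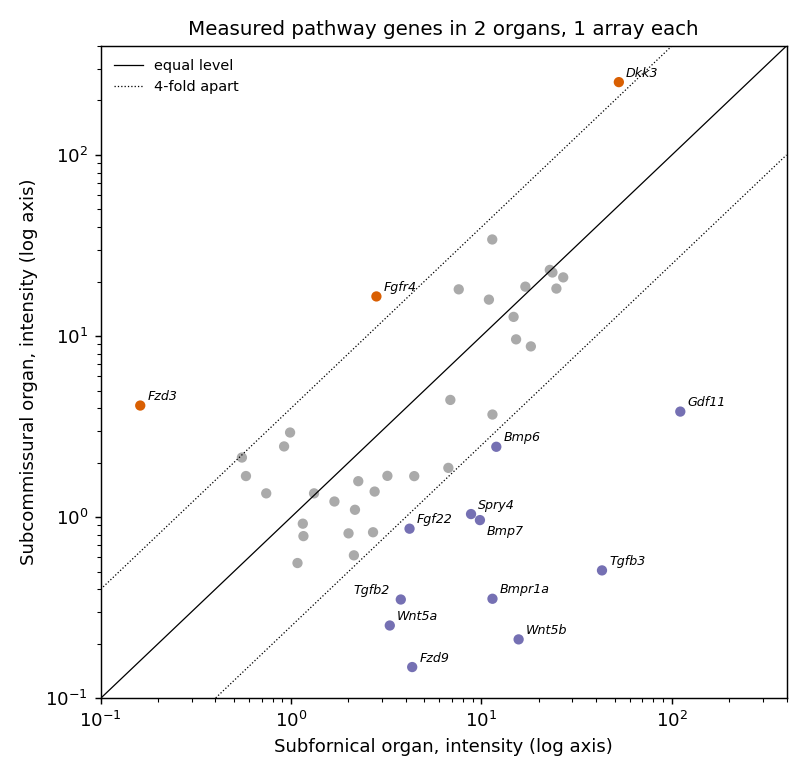
Intensity in the subcommissural organ against the subfornical organ for the genes of the set measured in either, 3 of them matched by name only. Both axes are on a log scale, with a solid line at equality, dotted lines at 4-fold and 1 point per gene. Of the 46 genes, 11 lie 4-fold or more toward the subfornical organ and 3 toward the subcommissural organ.

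Across all 6 arrays, 5 genes of the set stood 4-fold or more above every other tissue with values floored at 0.142 (all genes 3.7%): Sfrp5 in the pineal gland, Fgfr4 in the subcommissural organ, Fgf22 and Wnt5a in the subfornical organ and Wnt9b in total brain. By their bounds, 3 of them, Sfrp5, Fgfr4 and Wnt9b, were 4-fold above. No gene of the set stood out so in the ependyma. Another 6 stood 4-fold or more under every other tissue on the same floored scale (all genes 3.99%). By their bounds 3 did: Fzd1 in the pineal gland (4.14-fold), Smad1 in total brain (at least 4.23-fold) and Gdf11 in the subcommissural organ (7.63-fold), which its second probe did not share. The other 3, Bmpr1a, Tgfb3 and Wnt5b, were low in the subcommissural organ with bounds of at least 2.48-fold, 2.58-fold and 3.65-fold, and the second Wnt5b probe was lowest in the pineal gland. The genes that matched by name alone are in the counts of the set but were not read as pathway members. Among the genes 4-fold or more under total brain, they were 1 of 10 in the pineal gland. They were 2 of 14 in the subcommissural organ and 2 of 7 in the subfornical organ. Spryd7 fell 5.02-fold in the pineal gland against total brain. Tgfbrap1 was at 63.5 in total brain and 18.5 to 28.9 elsewhere, and Spryd3 was between 6.01 and 25.0. Tgfb1i1 was at 1.902 in total brain, 1.60 and 1.18 in the pineal gland, 0.777 in the ependyma, 0.720 in the subfornical organ and 0.147 in the subcommissural organ. Bmp2k was at most 1.42, and Fgfr1-ps1 was never measured.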

How the data were processed

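The deposited table gives a linear intensity for each probe on each array, as the authors processed it. The method of background correction and scaling, the scanner and its software are not given in the sources used here. Per the labels, 3 ng of total RNA went through 2 rounds of in vitro transcription, which can compress or distort levels. The array medians lay between 1.04 and 1.07, so the arrays share a centre. Entries of -9999 were treated as missing.

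The table has 35129 probes; 16865 had a single symbol in the platform annotation, 165 had several and were left unnamed, and 18099 were not listed. The gene's brightest probe by mean over the 6 arrays was used. A floor of 0.142 (5th percentile over all arrays) was applied before log2. A gene was measured in a comparison where its higher side reached 1.05, the pooled median, and where the lower side did not, the fold is a bound against 1.05, written "at least". Pineal values are means of the log2 intensities of both arrays.

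The pineal gland was compared with total brain and with the ependyma by limma 3.58.1 (lmFit and eBayes on all 6 arrays, R 4.3.3), two-sided, with Benjamini-Hochberg adjustment over all measured genes and a threshold of 0.05. The script was tested on simulated data. Its 1 residual degree of freedom comes from the pineal pair. At the main setting limma estimated infinite prior degrees of freedom, so 1 pooled spread served every gene. A call there amounted to a minimum log2 difference, 1.82 for total brain and 1.85 for the ependyma. After quantile normalization the standard errors differed between genes, from 0.41 to 2.66 against total brain. Elsewhere both sides had 1 array, and 4-fold differences were counted with no test. The number of arrays limits all precision.

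Named genes were those marking a tissue, those called by limma (up to 10 in each direction), up to the 6 largest at 4-fold in each direction of the other comparisons, receptors and Smads above the pooled 75th percentile, and up to 6 called genes of each pathway list. Other members were named to account for the whole set. Genes lowest in a tissue, and the other list genes given with values (Wls, Lrp5, Id1, Id3, Sdc2, Etv4 and Spred1), were singled out after their values were seen. The members, lists and markers were chosen with earlier results of these data known. Alternatives were quantile normalization, no filter, a filter at the 75th percentile, a floor at the pooled median, a pseudocount of 1, the mean of all probes, an intensity trend in limma and leaving out each pineal array. Figures were drawn with matplotlib 3.10.9, and tables made with pandas 2.3.3 in Python 3.11.15.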

Additional observations from a re-analysis of the deposited data

Results flagged for a closer look

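Bmpr1a moved in opposite directions in the circumventricular organs. Its log2 difference from total brain was 2.13 in the subfornical organ, where the level was 11.4 against 2.60, and -2.88 in the subcommissural organ, where it was 0.354. The difference between these effects was not tested, since each organ had 1 array, and a single probe measured the gene.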

How the results depend on the processing

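No paired analysis was possible because only the pineal gland had numbered replicates. No single-gene difference changed sign at a setting where its gene was still measured. Of those recomputed, 508 kept their side of the threshold and 157 lost it, 56 of these with a floor at the pooled median. Genes that a setting left unmeasured were not counted. With 1 array on each side, a change of filter leaves the difference unaltered, so it keeps its side by construction. Of the counts and medians, 90 moved past a set margin and 78 did not. The causes were not tested beyond what a setting's own construction shows. A floor at the pooled median alters only differences that involve values under it. A pseudocount of 1 shrinks differences between low values, and a stricter filter tests fewer genes. With that floor the limma standard errors were no longer equal. They ran from 0.0968 to 2.69 against total brain and from 0.107 to 2.66 against the ependyma. A call could thus be lost with its difference unchanged, as for Tgfb3 against the ependyma (log2 3.53 at both settings).

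Genes of the set at 4-fold, in the order pineal gland, subcommissural organ, subfornical organ and ependyma against total brain, numbered 13, 21, 13 and 15. They came to 5, 12, 8 and 7 under a filter set at the 75th percentile and to 4, 11, 8 and 6 with a pseudocount of 1. With a floor at the pooled median the first was 8. For the pineal gland, subcommissural organ and subfornical organ against the ependyma the counts were 12, 10 and 14, and 6, 5 and 5 with that filter and 4, 5 and 5 with that pseudocount; the floor gave 5 for both the subcommissural and the subfornical organ. Subcommissural against subfornical organ went from 14 to 9 with that filter. Genes marking a tissue went from 5 to 2 with the filter, 3 with the floor and 2 with the pseudocount. The shares of all genes at 4-fold were not counted with that filter or that pseudocount. The drops at those settings therefore cannot be set against a background.

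Against total brain, limma's 13 pineal calls became 6 after quantile normalization, 6 with no filter, 7 with the stricter filter and 0 with the floor. Its calls among the other Wnt genes went from 10 to 3, 4 (no filter) and 0 (floor), among the BMP and TGF-beta genes from 7 to 3, 2 and 0, and 4 with the mean of all probes, and among the FGF genes from 4 to 1, 0 and 0. Against the ependyma its 12 calls became 3 with no filter, 6 with the stricter filter and 0 with the floor. The Wnt list went from 6 to 1, 3 and 0. The BMP list went from 7 to 2, 4 and 0, with 4 after quantile normalization and 3 with the mean of all probes, and the FGF list from 2 to 0, 1 and 0, with 1 each after quantile normalization, a pseudocount of 1 and an intensity trend. With the floor at the pooled median limma called 0 of all genes in both comparisons, although 2474 and 2140 had an unadjusted p under 0.05. With no filter it called 1018 and 731 of 12167 genes. With the stricter filter it called 1582 of 5995 genes against total brain and 1304 of 5587 against the ependyma. After quantile normalization these were 1222 of 9082 and 1115 of 8983, and at the main setting 2177 of 9077 and 1822 of 8964.

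Median log2 differences of the measured genes moved as follows, in the order quantile normalization, no filter, floor, pseudocount and mean of all probes. Pineal gland against total brain (-0.71) came to -0.26, -0.23, -0.53, -0.48 and -0.58, with -0.82 under the stricter filter and -1.05 to -0.63 on leaving out a pineal array. Pineal gland against the ependyma (-0.36) came to -0.19, -0.24, -0.24, -0.18 and -0.21, with -0.19 under the stricter filter and -0.28 to -0.11 on leaving out an array. Subcommissural organ against total brain (-1.08) came to -0.84, -0.42, -0.69, -0.71 and -0.70, with -1.49 under the stricter filter. Ependyma against total brain (-0.63) came to -0.25, -0.090, -0.42, -0.46 and -0.54. Subfornical organ against the ependyma (0.51) came to 0.40, 0.26, 0.35, 0.39 and 0.28. Subfornical organ against total brain (0.29) came to 0.46, 0.21 and 0.13 under the first 3 and to -0.088 with the mean of all probes, so its sign is not settled. Subcommissural against subfornical organ (-0.65) came to -0.48 with no filter, -0.47 with the pseudocount and -0.43 with the mean of all probes, and subcommissural organ against the ependyma (-0.28) to -0.15 under the stricter filter.

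At every setting where they were tested, the floor excepted, limma called Sfrp5, Fzd9, Sfrp2 and Wnt9b in the pineal gland against total brain, and Fgfr2, Sfrp5 and Tgfb3 against the ependyma. Leaving out a pineal array took the difference under 4-fold for Fzd10, Smad7 and Tgfb2 against total brain and for Bmp4, Fzd6 and Spry4 against the ependyma. Other probes of genes at 4-fold lay on the same side 25 times and on the opposite side 6 times.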
